A study of Mus musculus with 2 samples.

Results

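Accessible chromatin at the genes of the eukaryotic translation initiation factors was examined by ATAC-seq, in which the Tn5 transposase cuts and tags open DNA. The genes were chosen by name, as the protein-coding genes of the RefSeq table for GRCm38 on chromosomes 1 to 19 or X whose symbol starts with Eif followed by a digit. This rule found 55 of 21631 protein-coding genes. The digit, here called the factor number, divided them into 5 Eif1, 14 Eif2, 14 Eif3, 17 Eif4, 4 Eif5 and 1 Eif6 genes. The series held 1 group of 2 libraries from mouse GSCs of the male germline, as the labels abbreviate the cell type, with the genotype Stag3 KO. Both libraries came from the AAG reporter line (Acrosin-EGFP together with beta-Actin-EGFP), sorted for viable reporter-positive cells, with 50000 cells transposed per library. Stag3 encodes a meiotic subunit of the cohesin ring, which embraces sister chromatids. The sources used here give no strain, age, number of clones or deleted part of Stag3, and wild-type libraries were not analysed here. Every value therefore describes Stag3 KO cells, and none is an effect of the knockout.

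Translation initiation loads a ribosome onto an mRNA at its start codon. eIF2 carries the initiator tRNA to the small ribosomal subunit as a complex with GTP, and eIF2B renews that GTP after each round. eIF3 is the large scaffold on the small subunit, the eIF4 proteins bind the mRNA cap and unwind the leader, and eIF5 and eIF5B trigger GTP hydrolysis and the joining of the large subunit. Phosphorylation of eIF2 by stress kinases and capture of eIF4E by binding proteins are well known brakes on the process. In the testis, signalling through mTORC1, which releases eIF4E, is known to act in the differentiation of spermatogonia.

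The deposited data were 1 list of peaks per library, with 107331 peaks in replicate 1 and 98986 in replicate 2. Each replicate 1 peak that overlapped a replicate 2 peak by at least 1 bp was merged with the one it overlapped most into a shared region. This gave 83732 regions, as many as the shared replicate 1 peaks, and a replicate 2 peak could enter more than 1 region. Fold enrichment is the authors' value, the signal at the summit relative to the local background. Total depth is unknown. The tags at each summit were recovered from the fold and p-value, with a median of 40 and 41 tags per peak. Separate cultures are not named in the labels, and the replicate spread may be purely technical. Peaks within 1000 bp of the gene were shared at 20 of 20 matched marker genes of undifferentiated spermatogonia, 8 of 9 of Sertoli cells, 3 of 6 of Leydig cells, 7 of 8 of fibroblasts and feeder cells, and 7 of 8 of endothelial and blood cells. Over the start of the gene, the counts were 11 of 13, 2 of 5, 1 of 4, 2 of 4 and 1 of 4. The shares over all protein-coding genes were 76.6% and 61.8%. In the same order of lists, the median of the mean fold was 19.1, 13.9, 10.4, 14.8 and 15.7. The ranges overlapped, as with 3.44 at Nanos2 to 35.5 at Gfra1 for spermatogonia and 6.21 at Cdh5 to 31.2 at Pecam1 for endothelial and blood cells. A peak near a gene does not measure its expression, and the part of other cell types in the values below was not tested.

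The sequences under the strongest sites, taken by factor number, are shown first. A high rank among all members was not required, and Eif1ax ranked 32 of 53 by mean fold. For each factor number, the gene with the highest fold at its strongest shared region was taken, where the RefSeq promoter table (GRCm38.p6) held it. The table gives the 250 bases before and 50 bases after the start of transcription, here called the start window. Only bases before the start and outside the gene model are printed, in the direction of transcription. Eif5a2, the highest of its number, had under 100 such bases, so the next gene, Eif5, is shown. Eif6 was not in the table. Capitals mark matches to 9 motifs searched on both strands, with the GC box spelled GGGCGG, the CCAAT box spelled CCAAT and the TATA box spelled TATAAA.
Eif1ax (chrX:159371928-159372177, plus strand): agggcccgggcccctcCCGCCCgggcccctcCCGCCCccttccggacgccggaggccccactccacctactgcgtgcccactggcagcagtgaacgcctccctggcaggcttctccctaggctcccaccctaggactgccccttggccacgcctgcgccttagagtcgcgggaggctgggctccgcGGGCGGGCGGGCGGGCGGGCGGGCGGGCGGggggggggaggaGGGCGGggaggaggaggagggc
Eif2b2 (chr12:85219231-85219480, plus strand): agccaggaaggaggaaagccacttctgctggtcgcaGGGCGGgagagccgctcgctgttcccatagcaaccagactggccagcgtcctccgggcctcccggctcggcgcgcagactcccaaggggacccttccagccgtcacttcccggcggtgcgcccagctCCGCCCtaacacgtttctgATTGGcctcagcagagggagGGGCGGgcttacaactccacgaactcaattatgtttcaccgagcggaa
Eif3m (chr2:105017028-105017277, minus strand): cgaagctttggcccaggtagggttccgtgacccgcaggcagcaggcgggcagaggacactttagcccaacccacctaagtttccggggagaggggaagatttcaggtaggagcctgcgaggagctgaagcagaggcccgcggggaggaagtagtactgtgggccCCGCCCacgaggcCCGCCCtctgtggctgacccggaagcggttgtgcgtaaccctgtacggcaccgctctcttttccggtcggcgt
Eif4ebp2 (chr10:61452791-61452919, minus strand): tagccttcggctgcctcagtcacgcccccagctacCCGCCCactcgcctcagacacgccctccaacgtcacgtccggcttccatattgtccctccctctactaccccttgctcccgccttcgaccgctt
Eif5 (chr12:111537851-111538100, plus strand): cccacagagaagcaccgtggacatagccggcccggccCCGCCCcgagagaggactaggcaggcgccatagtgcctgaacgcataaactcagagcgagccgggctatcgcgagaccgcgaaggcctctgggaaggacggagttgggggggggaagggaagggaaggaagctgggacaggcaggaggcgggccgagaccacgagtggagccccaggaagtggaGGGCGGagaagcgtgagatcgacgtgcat
All of the printed bases of these 5 genes lay inside a region shared by both libraries. They were rich in G and C, from 64.3% at Eif4ebp2 to 78.8% at Eif1ax, and each held at least 1 GC box, with 10 overlapping or separate matches at Eif1ax. None held a TATA box. Over whole start windows, the median G and C content was 61.3% for the members and also for all genes with a shared region over the start. A GC box was found in 66.9% of the latter. GC boxes are bound by the Sp family of transcription factors, but a match is only a string of letters and no binding was measured.

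Nearly all initiation factor genes had accessible chromatin in both libraries. A shared region lay within 1000 bp of the gene at 53 of 55 members (96.4%, 95% exact binomial interval 87.5 to 99.6), against 76.6% of all protein-coding genes. The interval treats the genes as independent draws, although they are the whole named set in the same 2 libraries. It is not a test against the share of all genes. The median gene length was 17.8 kb for the members and 17.3 kb for all genes. Counted at gene ends only, it was 52 of 55 (94.5%), against 66.5% of all genes. By factor number the counts were 5 of 5 for Eif1, 13 of 14 for Eif2, 14 of 14 for Eif3, 16 of 17 for Eif4, 4 of 4 for Eif5 and 1 of 1 for Eif6. The exceptions were Eif2s1, with a peak in replicate 2 only, and Eif4a3l1, with no peak in either list. With only the 50000 peaks of highest fold per library, 47 members kept a shared region, and the losses included Eif1 and Eif1b, so that 3 of 5 Eif1 genes remained.

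At their strongest region the members were about as high as other genes with a region. The median fold over the 53 genes was 18.5 in replicate 1 and 20.4 in replicate 2 (SD 1.36, n = 2). Over all 16567 protein-coding genes with a shared region it was 18.5 and 19.1. The lowest member was Eif4ebp3 and the highest was Eif3m. The SD between replicates, pooled over the 53 genes, was 2.11 on the fold scale, and the SD between genes was 6.27. Neighbours in the order of fold within a factor number had overlapping replicate values in 32 of 47 pairs, so the order of close genes is not resolved by these libraries. Genes are not replicates of a factor number, and differences between factor numbers are described here without a test.

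**Figure D1:**
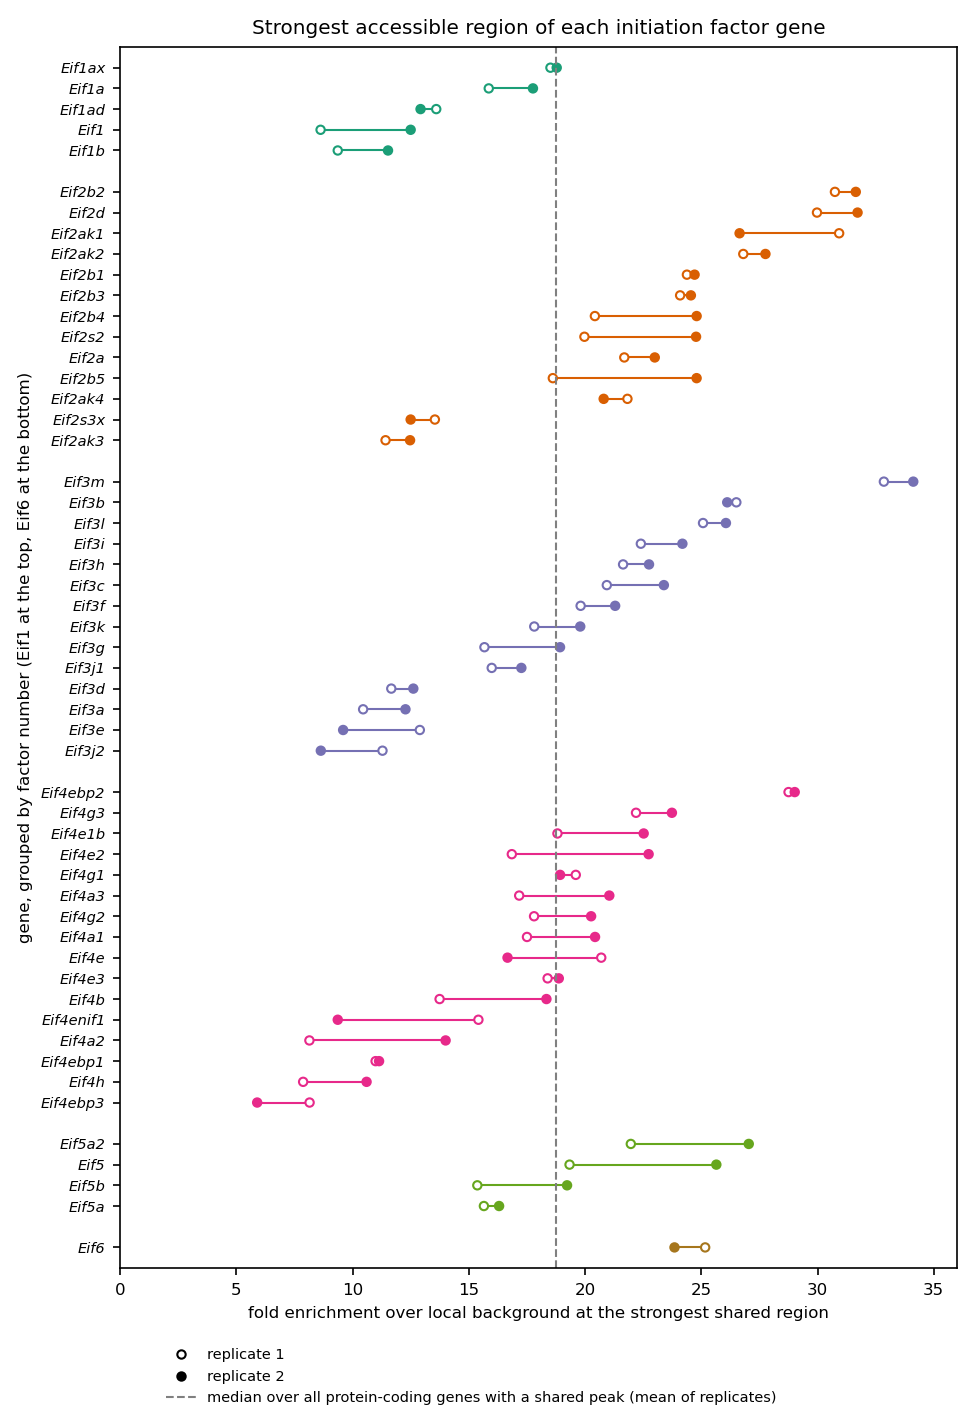
Fold enrichment (x axis, no unit) at the strongest shared region of each of the 53 genes with a shared region (y axis), grouped by factor number, with replicate 1 as open and replicate 2 as filled points joined by a line. The dashed line is the median over all protein-coding genes with a shared region. All Eif1 points lie at or left of 18.8, whereas 11 of the 13 Eif2 genes have a mean of at least 20.

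The Eif1 genes had the lowest median in both libraries, although the lowest single genes, Eif4ebp3, Eif4h and Eif3j2, had other factor numbers. The median fold was 13.6 and 12.9 for Eif1, 21.8 and 24.8 for Eif2, 18.8 and 20.5 for Eif3, 17.3 and 18.9 for Eif4, and 17.5 and 22.4 for Eif5, in replicates 1 and 2. The single Eif6 gene had 25.2 and 23.8. Eif1 was lowest in each library, while Eif3 and Eif5 changed places between the libraries. A mean fold of 15 or more was reached by 39 of 55 members (70.9%), against 50.8% of all protein-coding genes. This mark and the next were chosen with the values in view. A mean fold of 20 or more was reached by 0 of 5 Eif1, 11 of 14 Eif2, 7 of 14 Eif3, 3 of 17 Eif4, 2 of 4 Eif5 and 1 of 1 Eif6 genes. This made 24 of 55 members (43.6%), against 33.9% of all protein-coding genes. The shares at both marks also count genes without a shared region, which were rarer among the members. Among genes with a region, 20-fold was reached by 24 of 53 members and by 7341 of 16567 genes, nearly the same share. The mark of 15 was reached by 39 of 53 members and by 10999 of 16567 genes, a smaller gap than over all genes.

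The Eif1 genes, apart from Eif1ad, serve the selection of the start codon. Eif1ax, the X-linked gene of eIF1A, had 18.5-fold in replicate 1 and 18.8-fold in replicate 2, on 116 and 144 tags. Eif1a, its autosomal copy at a region that also reached the end of Tmed7, had 15.9-fold and 17.8-fold. Eif1, whose product guards against wrong start codons, had 8.63-fold and 12.5-fold, and its paralogue Eif1b had 9.36-fold and 11.5-fold. Both lay below the X-linked gene in each library, by more than the spread between replicates. The Eif1 site lay 566 bp after the start, beside one over the start with 9.22-fold and 10.3-fold. The start site was the higher in replicate 1 and the inner site in replicate 2, so their order is not resolved. Eif1ad, named for an eIF1A domain, had 13.6-fold and 12.9-fold at a region that also covered the end of the neighbouring gene Banf1.

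Among the subunits of eIF2 itself the 3 genes differed widely. Eif2s2, for the beta subunit, had 19.97-fold in replicate 1 and 24.8-fold in replicate 2, on 154 and 220 tags, with the summit 5.5 bp from the start. Eif2s3x, for the gamma subunit that binds GTP and tRNA, had 13.5-fold and 12.5-fold. A second replicate 1 peak there overlapped the same replicate 2 peak. Eif2s1, for the alpha subunit that the stress kinases phosphorylate, had no shared region. Its only peak was in replicate 2, with 4.80-fold on 14 tags and a summit 976 bp before the start. The nearest shared summit lay 35413 bp before the start.

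All 5 eIF2B genes, for the exchange factor that recharges eIF2, had high sites. Eif2b2 stood second among all members, at 30.7-fold in replicate 1 and 31.6-fold in replicate 2, on 360 and 418 tags. Its region lay on chromosome 12 at 85219124 to 85219646 and covered the start. Eif2b1 had 24.4-fold and 24.7-fold, and Eif2b3 had 24.1-fold and 24.6-fold. Eif2b4 had 20.4-fold and 24.8-fold, and Eif2b5, the catalytic subunit, had 18.6-fold and 24.8-fold. The lowest eIF2B value in either library was thus that of Eif2b5 in replicate 1. The regions of Eif2b1 and Eif2b4 also reached the ends of the neighbours Gtf2h3 and Snx17, so the share of each gene in the signal cannot be told apart.

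The genes of the 4 kinases that phosphorylate eIF2 fell into strong and weak sites. Eif2ak1, for the haem-regulated kinase, had 28.2-fold in both replicates at its start, on 266 and 333 tags. A second site 71327 bp after the start had 30.9-fold and 26.6-fold, above the start in replicate 1 and below it in replicate 2. Eif2ak2, for the kinase that senses double-stranded RNA, had 26.8-fold and 27.8-fold, 20 bp before the start, at a region that also reached the end of Gm26637. Eif2ak4, for the kinase activated by amino acid shortage, had 21.8-fold and 20.8-fold at the start, with a further shared site of 20.6-fold and 14.1-fold inside the gene. Eif2ak3, for the kinase of the endoplasmic reticulum, stood apart from these. It had no peak over its start window in either list, and its nearest shared summit, 949 bp after the start, had 4.51-fold and 5.21-fold. Its strongest site lay 29713.5 bp after the start, with 11.4-fold and 12.5-fold on 36 and 38 tags. The alternative tRNA carriers Eif2d and Eif2a had 30.0-fold and 31.7-fold, and 21.7-fold and 23-fold. The Eif2a region also reached the end of Serp1.

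The start sequences of Eif2s1 and Eif2ak3 are printed in contrast to those of the genes printed above. They were chosen after the values were seen, and the Eif2ak3 stretch again stops at the gene model.
Eif2s1 (chr12:78861822-78862071, plus strand): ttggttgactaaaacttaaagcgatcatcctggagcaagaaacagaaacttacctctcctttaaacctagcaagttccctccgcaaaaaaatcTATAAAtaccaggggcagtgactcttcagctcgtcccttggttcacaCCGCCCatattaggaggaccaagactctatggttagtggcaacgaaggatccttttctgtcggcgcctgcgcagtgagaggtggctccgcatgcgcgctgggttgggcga
Eif2ak3 (chr6:70844265-70844483, plus strand): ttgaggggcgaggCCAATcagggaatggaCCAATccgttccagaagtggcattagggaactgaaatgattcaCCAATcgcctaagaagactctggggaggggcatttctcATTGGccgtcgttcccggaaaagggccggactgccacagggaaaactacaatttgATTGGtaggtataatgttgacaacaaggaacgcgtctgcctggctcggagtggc
No base of either stretch lay in a shared region. Their G and C content, 50.4% and 52.5%, was below that of each of the 5 genes printed above. Over whole start windows it was 53.0% and 54.7%, within the range of members with a shared region there. Among these, Eif5a had 43.3%, and Eif3f had 46.0% with a TATA box and a mean fold of 20.6 over its start. Eif1b, at 78.3%, had a mean fold of only 10.4. The Eif2ak3 stretch held 5 CCAAT boxes and no GC box, and that of Eif2s1 held 1 TATA box and 1 GC box.

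The subunits of eIF3 all had a shared region, but with a wide range. Eif3m had the highest fold of all 55 genes, 32.9 in replicate 1 and 34.1 in replicate 2, on 342 and 332 tags. The region lay on chromosome 2 at 105016834 to 105017351, and its values stood at percentiles 99.26 and 99.47 of all peaks of their libraries. Eif3l had 25.1-fold and 26.1-fold, Eif3h had 21.6-fold and 22.8-fold, Eif3c had 20.9-fold and 23.4-fold, and Eif3f had 19.8-fold and 21.3-fold. These 5 genes encode subunits with the PCI or MPN fold, which form the body of the complex. The other genes of that fold, Eif3k, Eif3a and Eif3e, had 17.8-fold and 19.8-fold, 10.5-fold and 12.3-fold, and 12.9-fold and 9.60-fold. Eif3a, for the largest subunit, therefore lay below Eif3m in each library, by far more than its replicates differed. The Eif3k region also reached the end of Map4k1.

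The eIF3 subunits outside that body had 15.8-fold and 18.1-fold as the median of 6 genes, against 20.4-fold and 22.0-fold for the 8 body genes. Eif3b, an RNA-binding core subunit, had 26.5-fold and 26.1-fold at a site 5765 bp after the start, whereas its start had only 9-fold and 13.3-fold. Eif3i, which binds Eif3b, had 22.4-fold and 24.2-fold at a region that also reached the end of Tmem234. Eif3g had 15.7-fold and 18.9-fold and Eif3d, a subunit that can itself bind caps, had 11.7-fold and 12.6-fold. The loosely bound subunit j has a pair of genes in this annotation. Eif3j1 had 15.99-fold and 17.3-fold on 148 and 173 tags, and Eif3j2 had 11.3-fold and 8.64-fold on 35 and 26 tags. Eif3j1 was the higher of the pair in each library.

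The Eif4 genes held 41 of the 94 shared regions of the set, and 10 of the 17 genes (58.8%) had at least 2, a share near the 50.8% of all protein-coding genes. Among the cap-binding genes, Eif4e2 had 16.9-fold and 22.7-fold, Eif4e had 20.7-fold and 16.7-fold and Eif4e3 had 18.4-fold and 18.9-fold. The replicate values of these 3 genes overlapped, so their order is not resolved. The Eif4e site lay 31327 bp after the start, near the far end of the gene, and the start itself had 13.2-fold and 17.0-fold. Eif4e3 had 6 shared regions, the most of any member. Eif4e1b, the germline relative of eIF4E, had no region inside its gene model. Its 18.8-fold and 22.5-fold came from a region within 1000 bp beyond the model that also reached the end of Tspan17.

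The scaffold genes and Eif4a1 were in the middle of the range, whereas Eif4a2 and Eif4h were near its lower end. Eif4a1, for the main helicase that unwinds mRNA leaders, had 17.5-fold in replicate 1 and 20.4-fold in replicate 2. These rested on 473 and 558 tags, the most of any member, over a local background of 26.1 and 26.4 tags. The region also reached the end of Senp3, and the signal of the 2 genes cannot be told apart. Eif4a2, its paralogue, had 8.15-fold and 14.0-fold on 100 and 155 tags, the widest ratio between replicates on the log2 scale in which replicate 2 was higher (0.78). The helicase partners Eif4b and Eif4h had 13.7-fold and 18.3-fold, and 7.88-fold and 10.6-fold. Eif4g1 and Eif4g2, for the scaffold that joins cap and ribosome and its cap-independent relative, had 19.6-fold and 18.9-fold, and 17.8-fold and 20.3-fold. Eif4g3 had 22.2-fold and 23.7-fold at a site 186061 bp after the start, inside a gene of 215 kb, and 16.5-fold and 17.7-fold at the start.

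The genes of proteins that hold back eIF4E included both the highest and the lowest Eif4 gene. Eif4ebp2 had 28.8-fold in replicate 1 and 29.0-fold in replicate 2, on 359 and 360 tags. Eif4ebp1 had 11.0-fold and 11.1-fold, and Eif4ebp3 had 8.15-fold and 5.90-fold on 25 and 20 tags, the lowest of all members. The 3 binding protein genes kept this order in each library, and the gap from Eif4ebp2 to Eif4ebp1 was far larger than the replicate differences. Eif4enif1, for the protein that carries eIF4E into the nucleus, had 15.4-fold and 9.36-fold at a region shared with the ends of Sfi1 and Gm51877. Eif4a3, a helicase of the exon junction complex rather than of initiation, had 17.2-fold and 21.0-fold. Its relative Eif4a3l1 had no peak, and the nearest shared summit lay 10581 bp after its start.

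Among the Eif5 and Eif6 genes, Eif5 had the most tags. Eif5, for the protein that triggers GTP hydrolysis by eIF2, had 19.3-fold and 25.6-fold on 400 and 553 tags. Eif5b, for the GTPase of subunit joining, had 15.4-fold and 19.2-fold on 350 and 472 tags at a region outside its model and over the end of Txndc9, while its own start had 10.8-fold and 11.5-fold. Eif5a, whose hypusine-bearing product acts mainly in elongation, had 15.7-fold and 16.3-fold, and its paralogue Eif5a2 had 22.0-fold and 27.0-fold. Eif5a2 was higher in each library. Eif6, for the factor that keeps the ribosomal subunits apart, had 25.2-fold and 23.8-fold on 149 and 144 tags, and a second region beyond the other end of the gene with 23.2-fold and 24.5-fold.

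Fold and tag number ranked the genes differently. Eif2b1 reached 24.4-fold and 24.7-fold with 78 and 85 tags over a local background of 2.24 and 2.48 tags, whereas Eif4a1 needed 473 and 558 tags for a lower fold. Across the 53 genes the log2 values of mean fold and mean tags correlated with Pearson's r = 0.64, where fold is itself computed from the tags. Fold is thus a measure of contrast with the surroundings. It is not the amount of accessible DNA.

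The libraries agreed closely for most members. Tags at the strongest region ranged from 20 to 558, and log2 tags correlated with r = 0.95 across the 53 genes, which share the 2 libraries. The summed tags were 9463 in replicate 1 and 10815 in replicate 2, a ratio of 1.14, against 1.10 for the strongest regions of all genes. Fold was higher in replicate 2 at 41 of 53 members (77.4%), against 62.3% of all genes with a shared region. Exact 95% Poisson intervals of the tags, which cover counting error only, did not overlap between replicates at 13 of 53 members (24.5%), against 16.9% of all genes with a shared region. In 11 of these replicate 2 was higher, among them Eif5, Eif2b5 and Eif4e2, and in Eif2ak1 and Eif4enif1 replicate 1 was.

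**Figure D2:**
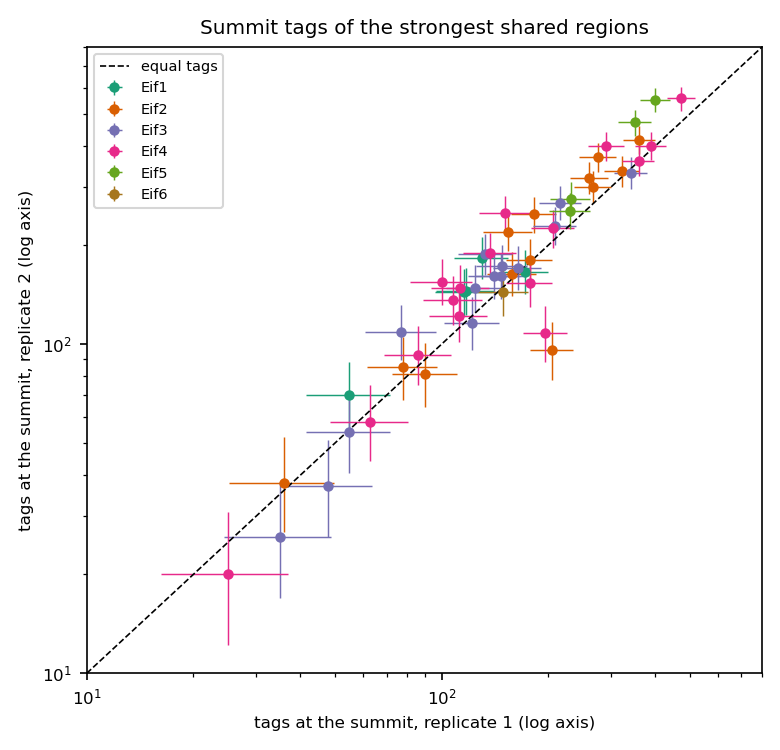
Tags at the summit of the strongest shared region in replicate 1 (x axis) and replicate 2 (y axis), both on log axes, for 53 genes coloured by factor number, with exact 95% Poisson intervals as bars and equality as a dashed line. Most points lie on or somewhat above the line, and Eif2ak1 and Eif4enif1 lie below it with about 200 tags in replicate 1.

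Accessibility was concentrated at the start of the genes. The promoter table matched 43 of 55 members by gene ID. A shared region covered part of the start window at 40 of 43 (93.0%), against 61.8% of all 17274 genes in the table. The exceptions were Eif2s1, Eif2ak3 and Eif4a3l1. Of the 41 members with a start window and a shared region, 34 had their strongest region there (82.9%), against 55.5% of all such genes. The others were Eif1, Eif2ak1, Eif2ak3, Eif3b, Eif4e, Eif4g3 and Eif5b, by the mean of both libraries. At Eif1, Eif2ak1 and Eif4e the start was the higher site in 1 library. Where a gene has exactly 1 region, that region is its strongest by definition. Such genes were 30 of the 53 members with a region and 5580 of 16567 genes, so 82.9% and 55.5% do not compare like genes. The median fold over the start was 17.7 and 20.1 at the members and 15.6 and 16.6 at all genes. The median summit lay at -75 bp from the start, with quartiles at -111 and -20.8 bp, and at -49.5 bp over all genes.

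**Figure D3:**
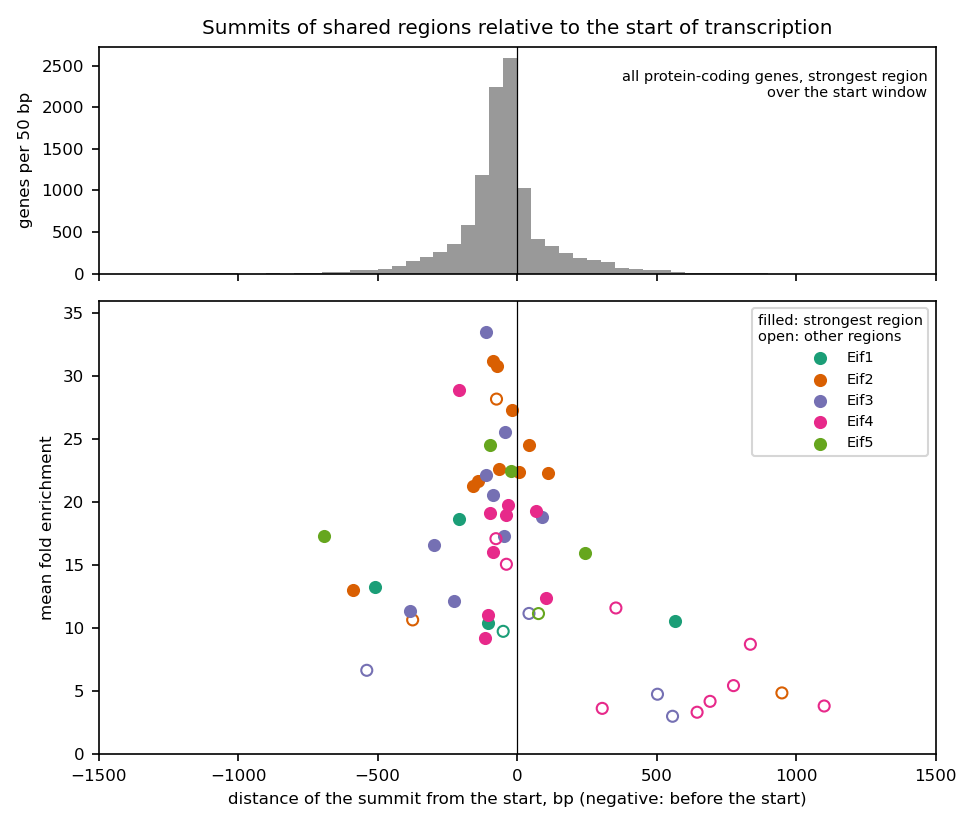
Distance of summits from the start of transcription (x axis, bp, negative before the start). The upper panel counts all protein-coding genes per 50 bp, and the lower panel gives the mean fold of the shared regions of Eif genes within 1500 bp, filled for the strongest region of a gene and open for others. The strong members cluster just before the start, and most of the weak open points lie after it.

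Most members had a single accessible site. Exactly 1 shared region was found at 30 of 55 (54.5%), against 25.8% of all protein-coding genes. Among genes with a region, it was found at 30 of 53 members and at 5580 of 16567 genes, a smaller gap. The median was 1 region per member and 2 per gene in the whole table, although the median lengths were close. It rose to 2 when peaks of replicate 1 alone were counted. The 41 regions that were not the strongest of their gene had a median mean fold of 8.72 and ranged from 3.00 to 28.2. Another 49 peaks at 27 genes were found in 1 library only, 37 of them in replicate 1, with a median of 4.80-fold on 19 tags. Of the 53 strongest regions, 12 also lay within 1000 bp of an end of another protein-coding gene, a share not computed for all genes. At these the 2 genes cannot be told apart.

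The start windows of the members were rich in CpG, the dinucleotide that marks promoters of broadly active genes. The ratio of observed to expected CpG was above 0.6 in 39 of 43 windows (90.7%), against 48.9% of all genes, with a median of 0.85 against 0.59. Among windows above 0.6, a shared region was found at 37 of 39 members (94.9%) and at 92.7% of all genes, so within this class the share of the members was near the background. Among windows at or below 0.6 it was found at 3 of 4 members, Eif2ak1, Eif2b5 and Eif4e, and at 32.2% of all genes. Eif4a3l1 had the lowest ratio of the members, 0.20. Eif2s1 and Eif2ak3 had ratios of 0.85 and 0.77 and were 2 of the 620 genes with a ratio above 0.6 and no shared region over the start.

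**Figure D4:**
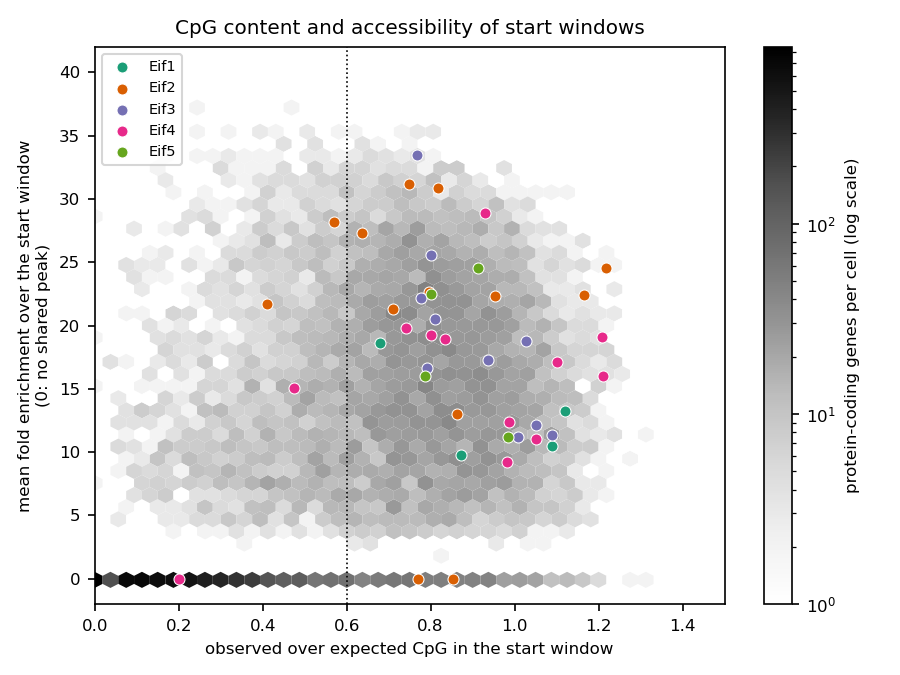
Observed over expected CpG of the start window (x axis) and mean fold of the shared region over it (y axis, 0 where there is none), with all protein-coding genes as grey cells shaded on a log scale and the 43 Eif genes as points coloured by factor number. Most Eif genes lie right of the dotted line at 0.6, and Eif2s1 and Eif2ak3 sit there on the bottom row.

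The motif content of the windows was described for 9 motifs, in the whole 300 bp of 43 members, of all genes and of all genes with a shared region over the start. The GC box was found in 31 members (72.1%), in 46.9% of all genes and in 66.9% of those with a region. The ETS motif ACTTCCGG was found in 7 members (16.3%), against 5.34% and 7.95%, namely in Eif2ak1, Eif2b2, Eif2b4, Eif3d, Eif3l, Eif4e2 and Eif5a2. The E-box CACGTG, which Myc and its relatives can bind, was found in 8 members (18.6%), against 8.01% and 10.5%, namely in Eif1b, Eif3a, Eif3f, Eif3k, Eif4a1, Eif4g1, Eif4h and Eif5a2. The counts are small and were not tested. The CCAAT box was found in 14 members (32.6%), against 39.6% and 39.5%, and the TATA box in 3, against 13.4% and 6.61%. The palindromic NRF1 motif was found in Eif3k alone (2.33%), against 1.35% and 2.015%, which is near the background. The YY1 motif AAGATGGCG, the CGCG-centred palindrome known from housekeeping promoters and the cyclic AMP element TGACGTCA were found in 0 of 43 members and in 1.92%, 0.735% and 2.36% of all genes. Among genes with a region over the start, they were found in 2.97%, 1.12% and 3.31%. Motifs were counted separately where they overlapped.

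The other genes of translation and its control also had accessible sites throughout. Of 48 genes of elongation, termination, poly(A) binding, regulation of initiation, mTOR signalling and the integrated stress response, 48 had a shared region within 1000 bp, against 76.6% of all protein-coding genes. Their median fold was 18.6 and 18.3. The elongation factor genes had the lowest median of these lists, 12.8 and 14.8, with 11.9-fold and 15.5-fold at Eef1a1, which delivers tRNA to the ribosome, and 12.6-fold and 14.2-fold at Eef2, which moves the ribosome along. The release and recycling genes had a median of 19.7 and 20.8. Rps6kb1, for the kinase that mTORC1 activates, had 32.2-fold and 29.6-fold. Atf4, whose translation rises when eIF2 is phosphorylated, had only 4.76-fold and 6.32-fold. Mknk2, for a kinase of eIF4E, had 5.34-fold and 4.57-fold.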

How the data were processed

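ATAC-seq peak lists of 2 Stag3 KO samples, which formed 1 group by their labels, were analysed. Per the submitters' processing notes, which name no settings or roles, the tools included MACS2 2.1.1 and Bowtie2 2.3.4.1, besides Trim Galore, deepTools 3.5.0, bedtools 2.29.2 and Picard 2.18.23. The builds named are GRCm38.p3 and mm10. Tn5 offset correction and removal of duplicates, which can change the peaks and their summits, are not given in the sources used here.

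Peaks were deposited per sample. Fold enrichment is the ratio that the authors' peak caller gave. The −log10 p-value and −log10 q-value, and a score of 10 times the latter that was not used, were also as the authors deposited them. Tags at a summit were recovered as the whole number that gives both the fold (1 added to both tags and background), and the Poisson p-value, within a relative 1e-05 plus 0.0001. A unique number was found for 100% of replicate 1 peaks and 99.998% of replicate 2 peaks, and no depth beyond these tags was known.

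Genes came from the RefSeq table for GRCm38.p6. Patch releases leave chromosome coordinates unchanged. A gene's strongest region was that of highest mean fold. Start windows matched by gene ID, composition and motifs used the one farthest upstream per gene, and regions were counted over any of them. Python 3.11.15, pandas 2.3.3 and scipy 1.17.1 were used, and the scripts were tested on simulated data. With 1 group no test between groups was possible, so shares are set beside those of all genes. All members are accounted for. The rule for named genes took, per factor number, the highest, second and lowest genes by mean fold, and every gene without a shared region. The remaining members are given by value. The members, lists and motifs were chosen with earlier results of these data known. Alternatives changed the overlap, the peak threshold, the window and the libraries.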

Additional observations from a re-analysis of the deposited data

Results flagged for a closer look

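Eif2s3y, the Y-linked copy of the gene for the gamma subunit of eIF2, lay outside the set because only chromosomes 1 to 19 and X were used, and was looked at because its peaks stood in data not otherwise analysed. It had a shared region over the lower end of its gene model, at a mean fold of 17.2, from 15.9 on 87 tags in replicate 1 and 18.5 on 98 tags in replicate 2. A second region inside the model had 11.9-fold and 13.0-fold on 37 and 42 tags. The X-linked copy Eif2s3x had 13.5-fold and 12.5-fold on 90 and 81 tags at its strongest region.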

How the results depend on the processing

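Of 150 comparisons of a count or median with its value under an alternative, 142 stayed within the limits set (1.5 times for counts, 1 SD between replicates for medians) and 8 did not. The limit for counts is wide, since even a fall from 53 to 47 members with a region stayed within it. The 142 are therefore no measure of stability. With only the 50000 peaks of highest fold per library, Eif1 genes with a shared region fell to 3, their median fold was 16.8, the median over all members was 20.6, and 47 members (85.5%) kept a region, against 66.04% of all genes. Within 1000 bp of gene ends only, the median of Eif3 was 18.1. A window of 2500 bp gave a median of 2 regions per member. Leaving out a replicate gave a median of 1 to 2 regions per member, medians of 21.8 to 24.7 for Eif2 and 17.3 to 18.9 for Eif4, and 53 to 54 members with a peak. In these the alternative itself removes or adds peaks. Single genes moved by over 1.5 times only at Eif5b in a window of 0 bp (where Eif4e1b lost its region) and at Eif2ak3, Eif3b and Eif4e3 at gene ends only (where Eif4g3 lost its region). Above the median fold, Eif3j2, Eif4a2, Eif4ebp3 and Eif4h had no shared region. No paired analysis was possible because there is only 1 group. At 20 to 40 tags, as at Eif3j2 and Eif4ebp3, counting error alone is wide, and a weaker site may go unlisted.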

Other observations

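The members without a listed site over the start differed in CpG ratio, and any part of the sequence in this was not tested. Of the 3 members with a start window and no shared region there, Eif4a3l1 had a CpG ratio of 0.20, beside a median of 0.19 over the 6604 genes without a region. Eif2s1 and Eif2ak3, which encode the target and a kinase of the same stress pathway, had CpG ratios of 0.85 and 0.77, a class in which 92.7% of all genes had a region. Around the Eif2ak3 start, replicate 1 alone had a peak 908 bp before it, with 5.19-fold on 21 tags, and the first shared region followed after it. Whether reads were present at either start below the peak threshold was not tested, since only peaks were analysed here.

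By the mean of both libraries, several members had their highest site far inside the gene. The summits lay 71327 bp after the start at Eif2ak1, 186061 bp at Eif4g3, 31327 bp at Eif4e, 29713.5 bp at Eif2ak3 and 5765 bp at Eif3b. In replicate 2 alone the start was the higher site at Eif2ak1 (28.2-fold against 26.6-fold) and at Eif4e (17.0-fold against 16.7-fold). At Eif4g3 a further inner site, 119350 bp after the start, had 17.5-fold and 18.8-fold, also above the 16.5-fold and 17.7-fold of its start. Which gene these sites belong to was not tested.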
